A study of Ovis aries with 9 samples.

Results

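The genes described here are 10 genes of the motile cilium and ciliated epithelium, and their expression was measured by RNA-Seq in the ovaries of 9 ewes. They were chosen by name without regard to their values, although earlier results of these data were known when they were chosen. All but TPPP3 have a place in the axoneme, the microtubule core of the cilium, while TPPP3 is a tubulin-binding protein abundant in ciliated epithelium. All 10 have a row of their own among the 27174 rows of the count table, and all 10 had enough reads to be tested together with 16871 genes in all. A further row named SPAG6.1, a second copy of SPAG6, held 1 read in all and was not tested. The ewes were 3 Dorset sheep labelled wild type (D4, D5, D6) and 6 Small Tail Han sheep. Of the latter, W1, W2 and W4 had the FecBBFecBB genotype of the BMPR1B gene (Han BB), and W6, W7 and W8 were FecB+ FecB+ (Han ++). All ewes were adults that had been synchronized with a progestagen sponge and pregnant mare serum gonadotropin. Whole ovaries were removed after the spontaneous estrus that followed, and samples were collected with regard to ovulation points on their surface. Whether each sample held a whole ovary or a part of it is not clear from the methods. Dorset ewes differ from Han ewes in breed as well as in fecundity, so these cannot be told apart, and each library is 1 ewe.

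A motile cilium is built on a ring of doublet microtubules around a central pair. The central apparatus on this pair and the radial spokes that reach it control the dynein motors, the nexin-dynein regulatory complex links neighbouring doublets, and a molecular ruler made of CCDC39 and CCDC40 sets the spacing at which these parts repeat along the doublet. Motile cilia are found on multiciliated epithelial cells such as those of the oviduct and its fimbria, and ciliated cells also occur in the rete ovarii, whereas most ovarian cells bear at most a primary cilium, which has no central pair. Because mixed ovary tissue was measured, a difference in the number of ciliated cells cannot be told apart from a difference in RNA per ciliated cell.

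Between 10803913 and 20992535 reads were counted on genes per library. 2 libraries, W4 of Han BB and D6 of Dorset, were closer to each other than to their own groups over the whole transcriptome. Across the tested genes, which are not independent replicates, the rank correlation of W4 with D6 was 0.978, while W4 reached at most 0.931 with another Han BB library and D6 at most 0.949 with another Dorset library. Why W4 and D6 are alike was not tested, and the Han BB and Dorset values rest on the labels as given. D4 and D5 were also closer to a Han library than to any Dorset library. Their highest values were 0.956 with W2 and 0.962 with W7, against 0.933 and 0.949 within Dorset. W1 of Han BB was closer to W6 of Han ++ (0.978) than to any Han BB library (at most 0.971). The gene LOC101101865 took 14.9% of the reads of D4, 7.69% of those of W8, 3.79% of those of W2 and at most 2.28% in any other library. The comparisons of the 10 genes are given with all 9 libraries first and then without W4 and D6, and the other gene lists with all 9 libraries alone. The tissue label was checked against marker genes. The granulosa cell gene FSHR was measured at 5.42 to 14.4 CPM (CPM is the count scaled to library size with TMM factors) and the steroidogenic gene STAR at 19.7 to 213 CPM. OVGP1, a secretory gene of the oviduct, was measured at 371 to 1824 CPM in these ovary libraries.

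The central apparatus genes were low in D4, D5 and W2 and were highest in W4 or, for SPAG6, in W6. SPAG6, an armadillo-repeat protein of the central apparatus, was measured at 3.41, 2.61 and 9.44 CPM in the Dorset ewes D4, D5 and D6, at 8.83, 6.79 and 17.1 CPM in the Han BB ewes W1, W2 and W4, and at 19.2, 16.2 and 14.7 CPM in the Han ++ ewes W6, W7 and W8. The 3 Han ++ values lay above all Dorset values, and the Han BB values overlapped those of both other groups.
SPAG16, a WD-repeat protein of the central pair, was measured at 0.779, 2.03 and 5.53 CPM in Dorset, at 4.56, 3.71 and 10.4 CPM in Han BB and at 6.20, 4.25 and 2.58 CPM in Han ++, so the 3 groups overlapped. It rested on few reads, with 8 reads in D4 and 28 in W8 as the lowest counts. SPEF2, a protein of a central pair projection, was measured at 8.86, 7.44 and 23.2 CPM in Dorset, at 8.64, 8.06 and 38.8 CPM in Han BB and at 24.0, 17.0 and 13.2 CPM in Han ++. Its highest Dorset and highest Han BB values were those of D6 and W4, while the other 4 ewes of these groups lay below all Han ++ ewes. HYDIN, a very large protein of another central pair projection, was measured at 23.4, 18.8 and 45.5 CPM in Dorset, at 25.3, 17.2 and 65.6 CPM in Han BB and at 37.9, 42.9 and 42.6 CPM in Han ++. For HYDIN too D4, D5, W1 and W2 lay below the Han ++ ewes. D6 and W4 lay above all Han ++ ewes for HYDIN, whereas for SPEF2 D6 lay just below W6.

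Both genes of the axoneme ruler reached their highest level in W4. CCDC39 was measured at 7.88, 5.91 and 29.2 CPM in D4, D5 and D6, at 14.0, 9.81 and 73.0 CPM in W1, W2 and W4, and at 27.1, 30.5 and 16.2 CPM in W6, W7 and W8. Its partner CCDC40 was measured at 4.96, 7.39 and 15.8 CPM in Dorset, at 6.69, 5.11 and 23.3 CPM in Han BB and at 16.5, 14.2 and 7.0 CPM in Han ++. In both genes the Dorset, Han BB and Han ++ ranges overlapped. The reads of CCDC39 per read of CCDC40, a ratio that is not corrected for length and is compared between libraries only, were lowest in D5 at 0.799 and highest in W4 at 3.13, and lay between 1.59 and 2.32 in the other 7 libraries.

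Of the genes at the nexin-dynein regulatory complex, CCDC65, a subunit of the complex, was measured at 5.45, 9.06 and 21.3 CPM in Dorset, at 10.5, 7.07 and 40.3 CPM in Han BB and at 44.1, 25.5 and 9.12 CPM in Han ++. CCDC113, which sits beside this complex near the base of a radial spoke, was measured at 4.77, 2.34 and 8.32 CPM in Dorset, at 7.02, 4.48 and 23.1 CPM in Han BB and at 20.1, 13.2 and 5.62 CPM in Han ++. For both genes W4 and W6 were the highest ewes, and W8 lay within the Dorset range. The coefficient of variation within Han ++ was 66.7% for CCDC65 and 55.8% for CCDC113, against 13.7% for SPAG6 and 6.81% for HYDIN.

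TEKT2 and TPPP3 did not share the high levels of W4 and D6. TEKT2, a tektin that forms filaments in the wall of the doublets, was measured at 5.84, 5.95 and 4.08 CPM in Dorset, at 6.12, 3.92 and 3.81 CPM in Han BB and at 8.40, 10.3 and 4.24 CPM in Han ++. W4 held the lowest TEKT2 value of the 9 ewes and D6 the third lowest. TPPP3, a tubulin-binding protein of the tubulin polymerization-promoting family that is abundant in ciliated epithelium, was measured at 108, 42.9 and 52.3 CPM in Dorset, at 127, 113 and 66.6 CPM in Han BB and at 195, 159 and 159 CPM in Han ++. The 3 Han ++ ewes lay above all 6 other ewes, and D5, D6 and W4 were the lowest. The reads of TPPP3 per read of HYDIN were 1.01 in W4 and 1.15 in D6, and 2.28 to 6.57 in the other libraries.

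**Figure D1:**
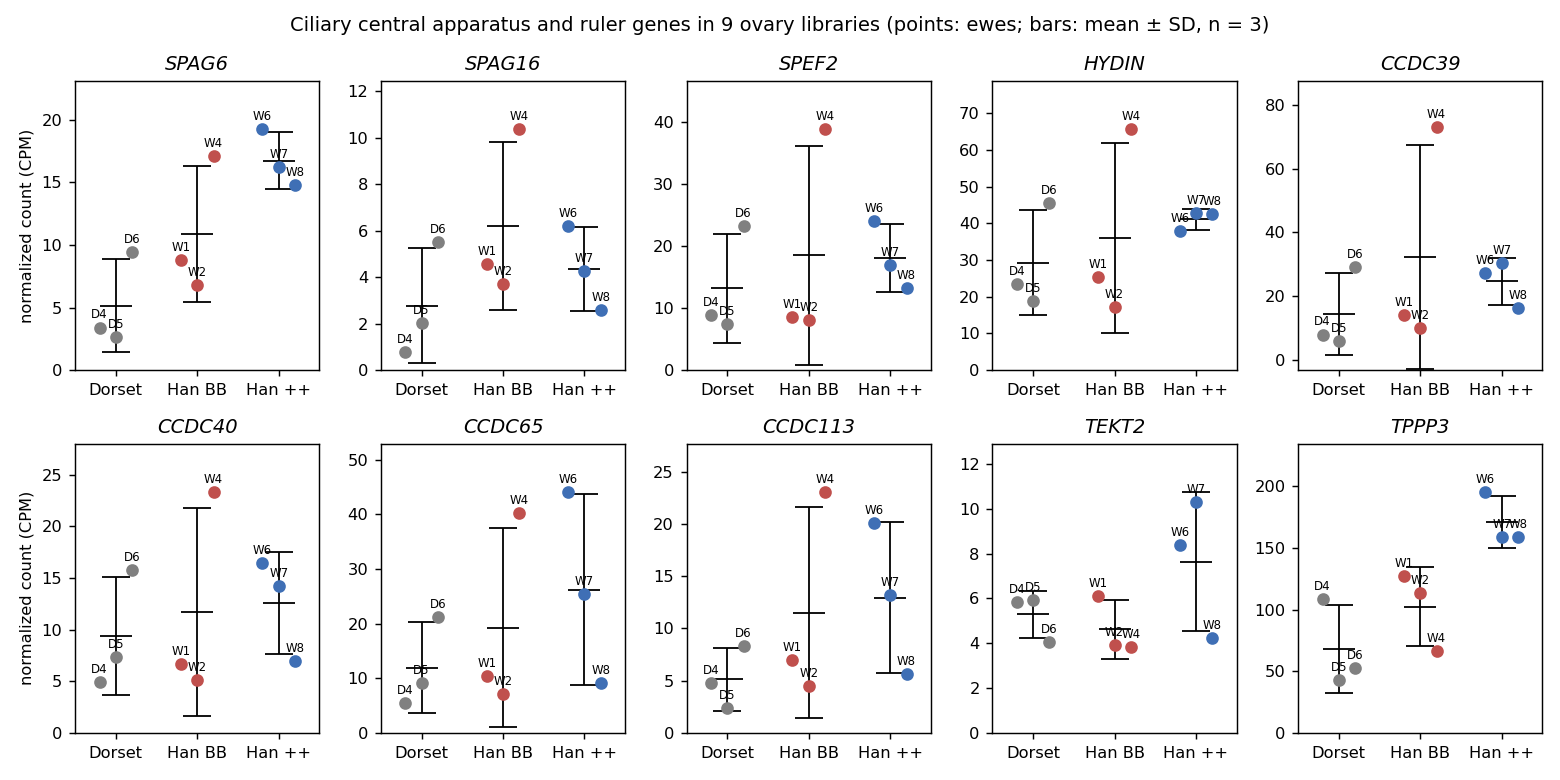
Normalized count (CPM, linear axis) of each of the 10 genes in each of the 9 ewes, with the mean and SD of the 3 ewes of a group as bars. W4 is the highest ewe for 6 of the 10 genes, and SPAG6 and TPPP3 are the genes whose Han ++ points all lie above the Dorset points.

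Ranked over the 9 ewes, W4 and W6 were each among the 3 highest for 8 of the 10 genes and W7 for 7, while D6, a Dorset ewe, was among them for 5. D5 and W2 were each among the 3 lowest for 8 genes and D4 for 7. The order of the ewes was therefore not that of the groups. When each gene was centred on its mean log2(CPM + 0.5), the mean over the 10 genes was -0.81, -0.93 and 0.23 in D4, D5 and D6, -0.19, -0.59 and 0.97 in W1, W2 and W4, and 0.83, 0.58 and -0.10 in W6, W7 and W8. The difference between the highest and the lowest ewe was smallest for TEKT2, at 2.70-fold, and largest for SPAG16, at 13.3-fold. On the same scale the root mean square difference of a gene from the mean of the 9 other genes was smallest for SPEF2 at 0.34, CCDC40 at 0.35 and HYDIN at 0.36, and largest for TEKT2 at 0.80 and TPPP3 at 0.92.

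The genes outside the 10 whose profile was most like their mean were found by the same root mean square difference over the 9 libraries, for which the median of all tested genes was 0.81. They were MAP3K19 at 0.18, VDAC1 at 0.20, and TEX26, CXHXorf30, CCDC11, EFCAB1, NSUN7, EFHC2, ZSWIM2 and ANKRD45 at 0.21 to 0.24. Of these, CCDC11 (CFAP53) and EFHC2 are microtubule inner proteins of the doublets and CXHXorf30 is listed here as CFAP47 of the central apparatus. MAP3K19 was measured at 3.74 to 8.38 CPM in Dorset, at 5.95 to 12.4 CPM in Han BB and at 6.36 to 15.9 CPM in Han ++, with W6 highest and D5 lowest. Several of these rows were low, with at most 2.15 CPM for VDAC1, 1.72 CPM for CXHXorf30 and 1.57 CPM for ZSWIM2, where the added 0.5 CPM narrows the differences. Of the 10 genes themselves, TPPP3 differed from the same mean by 0.83, above the median of all tested genes, and TEKT2 by 0.72.

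**Figure D2:**
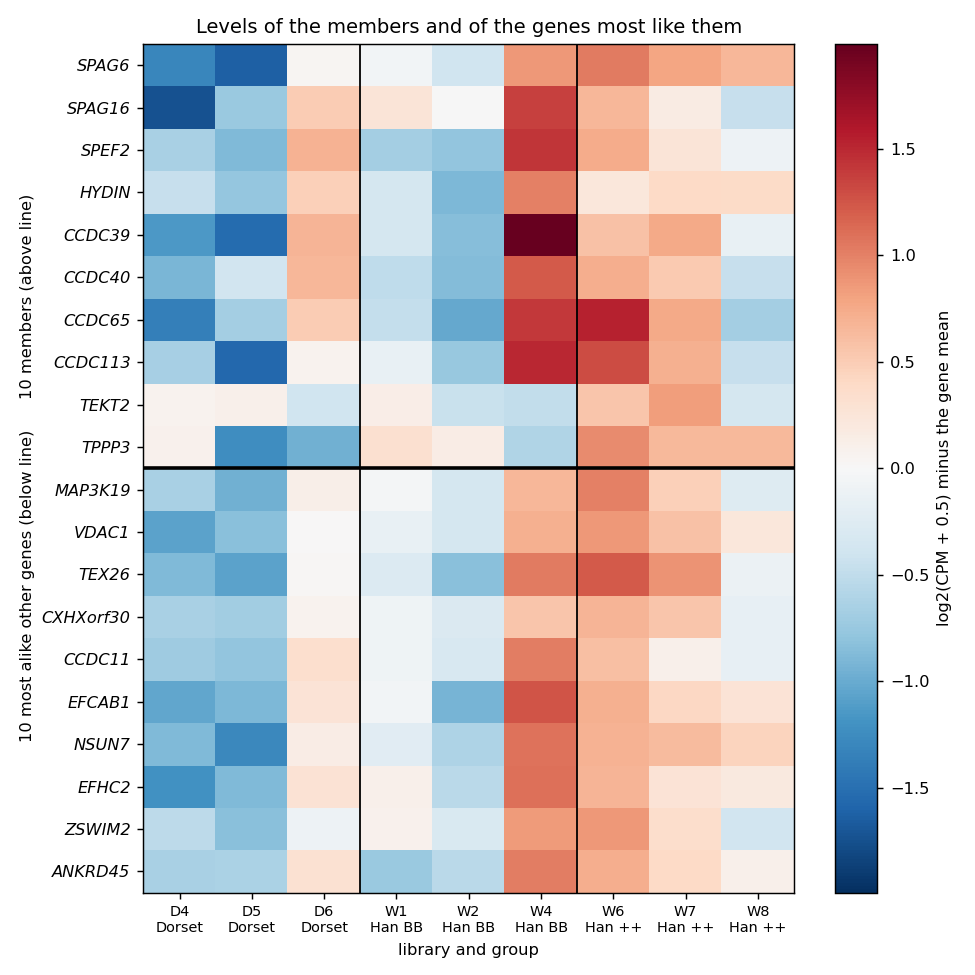
Centred log2(CPM + 0.5) of the 10 genes (above the line) and of the 10 other genes most like their mean (below the line) in the 9 libraries, in red where a library is above the mean of the gene and in blue where it is below. D4 and D5 are below the mean and W4 and W6 above it for nearly every gene, with TEKT2 and TPPP3 below it in W4.

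The comparison of Han ++ with Dorset sets FecB+ FecB+ Han ewes against Dorset ewes labelled wild type, which differ in breed and fecundity. The paper describes FecB typing for the Han ewes only. All 10 genes had a higher mean level in Han ++, where 44.1% of all tested genes had, with a median log2 fold change of 0.71 against -0.06 over all tested genes, and none was called by edgeR's quasi-likelihood test (called means more than 1.5-fold in either direction at an adjusted p under 0.05), as 0.00593% of all tested genes were. The adjusted p ranged from 0.654 to 1.00. SPAG6 averaged 16.7 ± 2.29 CPM in Han ++ and 5.15 ± 3.73 CPM in Dorset (SD, n = 3 ewes per group), a log2 fold change of 1.69 with a standard error of 0.51 (adjusted p = 0.706, edgeR). TPPP3 averaged 171 ± 21.1 CPM in Han ++ and 67.9 ± 35.4 CPM in Dorset, a log2 fold change of 1.33 with a standard error of 0.39 (adjusted p = 0.654, edgeR). For these 2 of the 10 genes the groups did not overlap, with Han ++ higher, as for 5.47% of all tested genes, and the same 2 genes had an unadjusted p under 0.05 with Han ++ higher, as 2.61% did. The other 8 genes had log2 fold changes from 0.42 for CCDC40 to 1.34 for CCDC113, and each of their 95% intervals included 0.

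W4 was the highest Han BB ewe and D6 the highest Dorset ewe for each of the 10 genes but TEKT2 and TPPP3. Leaving them out therefore lowers the Han BB and Dorset means of the other genes by itself, and narrows their range within these groups. The fit without W4 and D6 is thus no independent test of the 10 genes. D4 and D5, which then stand for Dorset, were also closer to a Han library than to any Dorset library. Without W4 and D6, which leaves 3 Han ++, 2 Han BB and 2 Dorset ewes, SPAG6 was called higher in Han ++ than in Dorset. Its log2 fold change was then 2.49 with a standard error of 0.33 (adjusted p = 0.0350, edgeR, adjusted over 18463 genes), where 0.119% of all tested genes were called. Of the 10 genes 9 had an unadjusted p under 0.05 with Han ++ higher, against 4.56% of all tested genes, and for 7 the groups did not overlap, against 11.1%. TEKT2, at a log2 fold change of 0.39, was the gene not among these 9, and the median of the 10 genes was 1.39. CCDC39 came next to SPAG6 by its adjusted p of 0.109 in edgeR, with a log2 fold change of 1.85, against 0.78 with all 9 libraries. With only D6 left out, 6 of the genes had an unadjusted p under 0.05 and none was called. DESeq2 and limma voom with quality weights, on all 9 libraries, called none of the 10, with lowest adjusted p of 0.101 and 0.111.

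**Figure D3:**
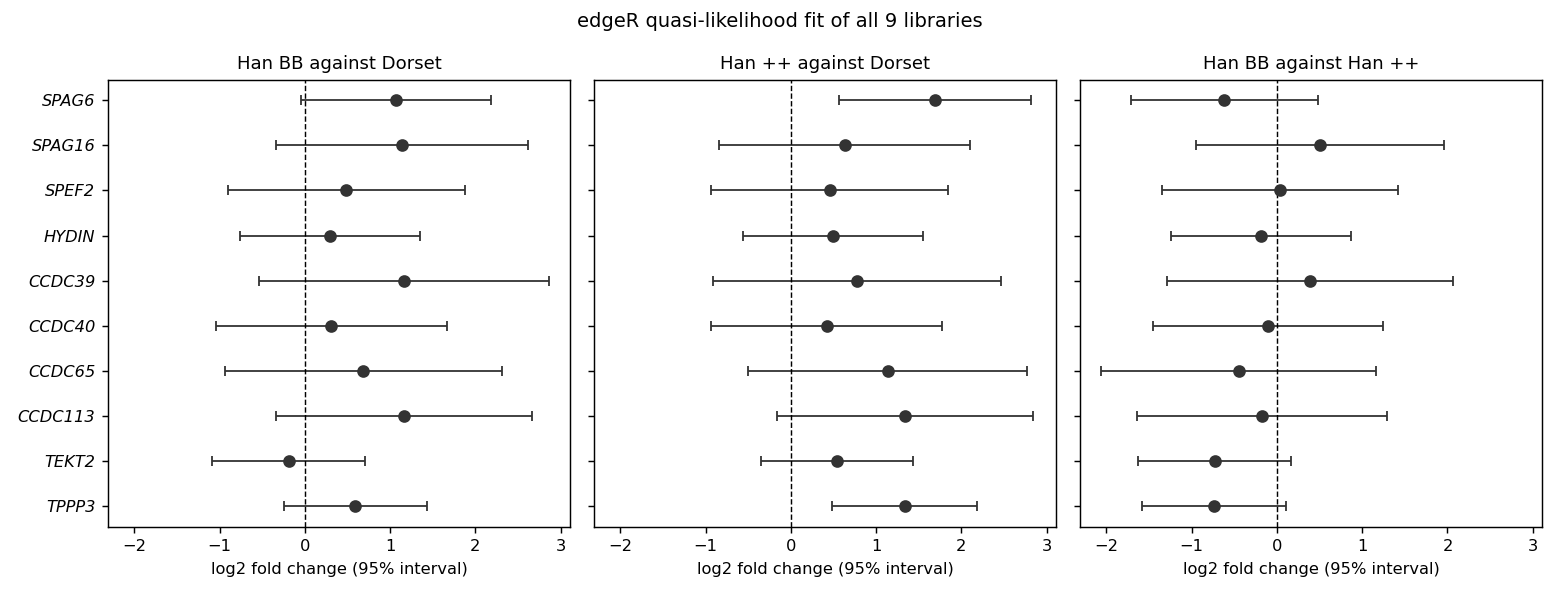
Log2 fold change of each of the 10 genes with its 95% interval from edgeR's quasi-likelihood fit of all 9 libraries, in the comparisons Han BB against Dorset, Han ++ against Dorset and Han BB against Han ++. In Han ++ against Dorset the intervals of SPAG6 and TPPP3 lie above 0, and all other intervals in the 3 panels include 0.

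Han BB and Dorset ewes differ in fecundity, breed and labelled genotype. Of all tested genes 49.4% had a higher mean level in Han BB. Of the 10 genes 9 had, and TEKT2 had a log2 fold change of -0.19. None was called, as 0% of all tested genes were, and the adjusted p from edgeR ranged from 0.975 to 0.997. The median log2 fold change was 0.64, against -0.01 over all tested genes. No gene had an unadjusted p under 0.05, where 2.10% of all tested genes had on the higher and 2.89% on the lower side. The groups overlapped for each of the 10 genes, where 4.27% of all tested genes lay wholly higher and 4.52% wholly lower in Han BB. SPAG6 averaged 10.9 ± 5.43 CPM in Han BB, with a log2 fold change of 1.07 over Dorset and a 95% interval from -0.04 to 2.19. In Han BB CCDC39 averaged 32.3 ± 35.4 CPM, against 14.3 ± 12.9 CPM for the Dorset ewes, so the SD of each group was close to its mean or above it. This comparison depended on both W4 and D6. Without W4 the median log2 fold change of the 10 genes was -0.19 and 4 of them were higher in Han BB, and without D6 it was 1.32 with 9 higher and 4 at an unadjusted p under 0.05. Without W4 and D6 together, 8 of the 10 were higher, the median was 0.46 and 2 genes, SPAG6 and SPAG16, had an unadjusted p under 0.05, against 3.22% of all tested genes on the higher side. None was then called, and 0.0108% of all tested genes were. Both comparisons with Dorset share the Dorset ewes, and SPAG6 and TPPP3 had log2 fold changes of 1.07 and 0.59 in Han BB beside 1.69 and 1.33 in Han ++.

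Between Han BB and Han ++, ewes of 1 breed that differ at FecB, 3 of the 10 genes were higher in Han BB, where 53.4% of all tested genes were, and 7 lower, with a median log2 fold change of -0.18 against 0.04 over all tested genes. None was called by edgeR, as 0% of all tested genes were, and the adjusted p was 0.999 for each gene. No gene had an unadjusted p under 0.05 in edgeR, where 0.877% of all tested genes had on the higher and 1.09% on the lower side. TPPP3 averaged 102 ± 31.8 CPM in Han BB, with a log2 fold change of -0.74 and a 95% interval from -1.58 to 0.10, and was the 1 gene whose Han BB values all lay below the Han ++ values, as for 4.59% of all tested genes, and none lay wholly higher, as 4.78% did. For TEKT2 the log2 fold change was -0.73 with an interval from -1.63 to 0.17, and for SPAG6 it was -0.62 with an interval from -1.71 to 0.48. HYDIN, with a log2 fold change of -0.19, had an interval from -1.24 to 0.86, so a difference of more than 2-fold toward lower levels in Han BB lay within the error.

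In limma voom with quality weights on all 9 libraries, 0 of the 10 genes were higher in Han BB and the median was -0.91. In that fit 7 genes had an unadjusted p under 0.05 on the lower side. None was called, with a lowest adjusted p of 0.646, and the share of all tested genes under 0.05 was not computed. In edgeR the median turned to the higher side without W6 (0.17), W1 (0.05) or W2 (0.18), and was -1.08 without W4. Without both W4 and D6, all 10 genes were lower in Han BB, with a median log2 fold change of -1.08, 7 of them had an unadjusted p under 0.05 on the lower side, against 1.93% of all tested genes, and for 6 the groups did not overlap, against 13.0%. None was called, with adjusted p from 0.993 to 1.00 in edgeR, and 0% of all tested genes were. The largest difference was that of CCDC65, with a log2 fold change of -1.60, and the smallest that of SPAG16, at -0.09. Only W1 and W2 stand for Han BB in this fit. The Han BB ewe left out, W4, was the highest of its group for each gene but TEKT2 and TPPP3. Its removal lowers the Han BB means of the other genes by itself and narrows their range within Han BB.

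**Figure D4:**
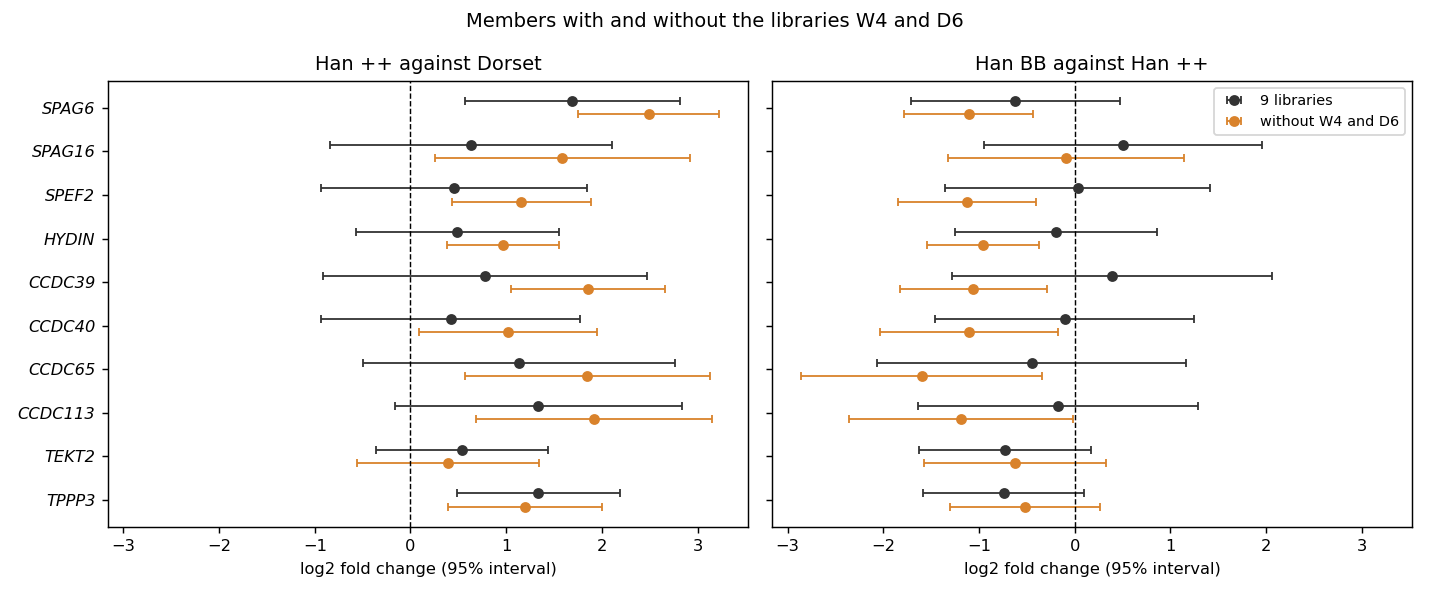
Log2 fold change and 95% interval of each of the 10 genes with all 9 libraries (dark) and without W4 and D6 (orange), for Han ++ against Dorset and Han BB against Han ++. Without these ewes 9 of the 10 intervals lie above 0 in Han ++ against Dorset and 7 lie below 0 in Han BB against Han ++. The ewes left out were the highest of their groups for each gene but TEKT2 and TPPP3.

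With both Han groups set against Dorset, all 10 genes were higher in Han, where 45.5% of all tested genes were. The median log2 fold change was 0.90 against -0.04 over all tested genes. None was called, as 0% of all tested genes were, and SPAG6 and TPPP3 had an unadjusted p under 0.05 on the higher side, as 2.63% of all tested genes had. The log2 fold change of SPAG6 was 1.38 with a standard error of 0.46 (adjusted p = 0.613) and that of TPPP3 was 0.96 with a standard error of 0.34 (adjusted p = 0.660, both from edgeR). Han and Dorset ewes overlapped for each of the 10 genes, where 1.83% of all tested genes lay wholly higher and 1.93% wholly lower in Han. Without W4 the median was 0.28 with 7 genes higher in Han, without D6 it was 1.41 with all 10 higher, and without both it was 0.99, with an adjusted p of 0.0744 for SPAG6 in edgeR. In that last fit 5 genes had an unadjusted p under 0.05 on the higher side, against 4.14% of all tested genes, and none was called, against 0.0325%.

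Other genes of the same axonemal structures were examined from lists, which were written with earlier results of these data known. Beside the counts of these lists stand 45.5% of all tested genes with a higher mean level in Han than in Dorset and 2.63% with an unadjusted p under 0.05 on that side. Of 12 further central apparatus genes 10 were tested, and 9 had a higher mean level in Han than in Dorset with none called and a median log2 fold change of 0.71. KIF9, a kinesin of the central pair, was at 0.80, with its 6 Han values above the 3 Dorset values, as for 1.83% of all tested genes. By log2 fold change the highest were CFAP47 at 1.01, AK7, an adenylate kinase, at 0.92 and CFAP70 at 0.88, and the lowest were CFAP46 at -0.20, STK36, a kinase needed for the central pair, at 0.11 and CFAP74 at 0.30. SPEF1, with 48 reads in all, was too low to be tested, and CFAP221 was not matched to a row.

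All 11 listed genes of the nexin-dynein regulatory complex and its neighbour CCDC96 were tested, and 10 had a higher mean level in Han, with a median log2 fold change of 0.62 and none called. The subunits DRC3, IQCG and EFCAB2 were highest, at 1.13, 0.98 and 0.95, and GAS8, IQCD and IQCA1 were lowest, at -0.48, 0.08 and 0.23. GAS8 encodes a core subunit that binds the doublet, and its standard error was 0.53. Of 22 tektins, microtubule inner proteins and TPPP relatives 19 were tested, 17 had a higher mean level in Han, 5 had an unadjusted p under 0.05 on that side and none was called, with a median of 0.82. CFAP161 and CFAP52, proteins bound to the doublet wall, were at 2.04 and 1.70, with adjusted p of 0.393 and 0.438 in edgeR. The lowest were TPPP, a brain-enriched relative of TPPP3, at -1.09, MNS1 at -0.39 and TPPP2 at 0.03.

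**Figure D5:**
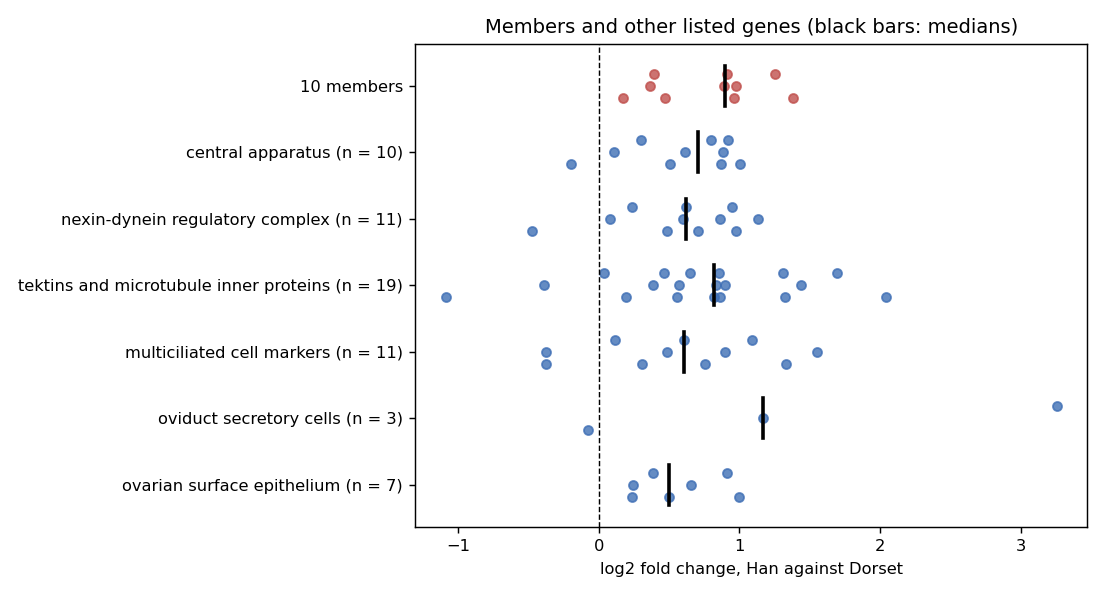
Log2 fold change of Han against Dorset for the 10 genes (red) and for the tested genes of 6 other lists (blue), with 1 point a gene and a black bar at the median of each list. The medians of the axoneme lists lie between 0.62 and 0.90, and none of the points passed the test after adjustment.

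Markers of ciliated and neighbouring epithelia were summed in each library for comparison with the 10 genes. The summed level of the 12 multiciliated cell markers with a row was 99.1 to 259 CPM in Dorset, 128 to 567 CPM in Han BB and 212 to 335 CPM in Han ++, with W4 highest and D4 lowest, and 1 marker was at 0 in each library but W6. Of the 11 tested, 9 had a higher mean level in Han than in Dorset and none was called. The 2 lower ones, TP73 and RFX2, each had a log2 fold change of -0.38. FOXJ1, the transcription factor that switches on motile cilium genes, was measured at 2.92, 2.61 and 3.13 CPM in Dorset, at 5.84, 3.36 and 2.88 CPM in Han BB and at 11.2, 8.32 and 8.57 CPM in Han ++. Its Han ++ values lay above those of both other groups, as for TPPP3, and in W4 and D6 it was near the level of D4 and D5 (log2 fold change of Han ++ over Dorset 1.70, adjusted p = 0.448, edgeR). This was the highest log2 fold change of the tested markers in that comparison. Of all tested genes, 5.47% lay wholly higher in Han ++ than in Dorset and 4.59% wholly lower in Han BB than in Han ++.

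The 3 oviduct secretory genes summed to 377 to 721 CPM in Dorset, 852 to 1124 CPM in Han BB and 782 to 1849 CPM in Han ++, nearly all of it OVGP1, so each Han ewe lay above each Dorset ewe. OVGP1 had a log2 fold change of 1.17 in Han over Dorset (adjusted p = 0.560, edgeR), TFF3, a secreted trefoil peptide, had one of 3.26 (adjusted p = 0.231), and PAX8 had one of -0.08. The 7 ovarian surface and epithelial genes, 4 keratins among them, summed to 129 to 330 CPM in Dorset, 216 to 324 CPM in Han BB and 296 to 386 CPM in Han ++. In W8, where the mean of the 10 genes was near 0, the oviduct sum was 1636 CPM and the epithelial sum 386 CPM, the highest of the 9 ewes for the latter, while W7 had the lowest oviduct sum of the Han ewes. The part that different amounts of these epithelia in the samples have in the levels of the 10 genes was not tested.

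Lists of other ovarian cells gave no called gene in the comparison of Han with Dorset. Of the tested markers, 1 of 5 was higher in Han for granulosa cells (median log2 fold change -0.19), 4 of 6 for luteal cells (0.30), 0 of 2 for theca cells (-0.55) and 0 of 4 for oocytes (-0.34). The same held for 1 of 3 smooth muscle markers (-0.47), 2 of 3 endothelial markers (0.05) and 3 of 3 leukocyte markers (0.43). Summed levels of the luteal markers ran from 271 to 1717 CPM in Dorset, from 357 to 1689 CPM in Han BB and from 845 to 1492 CPM in Han ++, so these groups overlapped.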

How the data were processed

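Ovary RNA was sequenced from 9 ewes (1 library each), which were grouped by the breed and genotype in their labels. The authors mapped the reads to Oar_v3.1 with TopHat defaults and deposited raw counts of uniquely mapped reads, not normalized. How reads were assigned to genes, with which strand setting and in which versions, is not given in the sources used here. Reads of overlapping genes may therefore be shared. For the libraries, a stranded total RNA kit stands in the methods and another Illumina kit in the labels.

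In R 4.3.3, edgeR 4.0.16 was the main tool, beside limma 3.58.1 and DESeq2 1.42.0 as alternatives. Python 3.11.15 with matplotlib 3.10.9 made the figures. After edgeR's expression filter by group and TMM scaling, a single quasi-likelihood model with group as its factor took in every library, and p-values were adjusted by Benjamini-Hochberg across the genes tested. Called genes needed an adjusted p under 0.05 and more than 1.5-fold in either direction, the study's limits (it used DESeq). The 95% intervals use the standard error implied by the F statistic, and errors are SDs over ewes. The common biological coefficient of variation was 0.472, and no pair of libraries of a group agreed within sampling noise. PCR reads are not independent molecules, so the depth of a library bounds counting error only. The tests were tried on simulated data, which did not hold the likeness of W4 and D6.

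The 10 genes and the lists were chosen with earlier results of these data known. Named are the 10, the 3 highest and 3 lowest of each axoneme list by the log2 fold change of Han against Dorset, and the 10 genes most like their mean. One gene that this rule names is not reported here. KIF9, FOXJ1, TP73, RFX2, FSHR, STAR, OVGP1, TFF3 and PAX8 were named after their values were seen. Lists were matched by the table's names, older symbols included. Alternatives were other size factors, DESeq2, limma voom with quality weights, no filter on low counts or one at 1 CPM in 3 libraries, pairwise fits, no fold limit, each library left out, and W4 with D6 left out.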

Additional observations from a re-analysis of the deposited data

Results flagged for a closer look

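Among the 6 Han ewes, the CCDC39 level of W4, at 73.0 CPM, lay far from the others, of which the next was W7 at 30.5 CPM. On linear CPM the gap to the next ewe was 0.672 of the whole range, above Dixon's critical value at 95% for 6 samples. That value holds for normally distributed levels, and log2 levels were not tested. The other 9 genes were tested in the same way and none passed, with SPAG16 in W4 next at 0.535. Chance alone passes this limit now and then (about 5% of groups), and 10 genes were tested. Groups of 3 were not tested.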

How the results depend on the processing

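With all 9 libraries none of the 10 genes was called in any comparison under DESeq2's size factors, DESeq2, limma voom with quality weights, either other filter, fits of 2 groups or no fold threshold, nor with any single library left out. Without W4 and D6, 1 gene (SPAG6, 2.49) was called in Han ++ against Dorset and the median log2 fold change was 1.39. In Han BB against Han ++ the median was then -1.08. With all 9 libraries that median was -0.91 in limma voom and -0.18 in edgeR. W4 and D6 were the highest ewes of their groups for each gene but TEKT2 and TPPP3. With 1 library left out the median ran from -0.19 to 1.32 when Han BB was set against Dorset, from 0.52 to 1.39 for Han ++ against Dorset, from -1.08 to 0.18 between the Han genotypes and from 0.28 to 1.41 in Han against Dorset. Where a group keeps 2 ewes, its spread is pooled with the other groups.

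Of 270 values of single genes under the other settings, 9 turned direction. In Han BB against Dorset these were SPEF2 at -0.066 and CCDC40 at -0.28 with limma voom, and CCDC40 at -0.086 without W4 and D6. In Han BB against Han ++ they were SPAG16 at -0.029, SPEF2 at -0.99 and CCDC39 at -0.85 with limma voom, and SPAG16 at -0.091, SPEF2 at -1.13 and CCDC39 at -1.06 without W4 and D6. Of 360 values with 1 library left out 22 turned direction. The ranges in Han BB against Dorset were CCDC39 -0.30 to 2.27, CCDC40 -0.70 to 0.94, CCDC65 -0.48 to 1.42, HYDIN -0.48 to 0.80 and SPEF2 -0.69 to 1.22. In Han BB against Han ++ they were CCDC113 -1.19 to 0.32, CCDC39 -1.06 to 0.83, CCDC40 -1.10 to 0.26, CCDC65 -1.60 to 0.18, HYDIN -0.96 to 0.15, SPAG16 -0.090 to 0.88 and SPEF2 -1.12 to 0.40. In Han against Dorset they were CCDC40 -0.15 to 0.98, HYDIN -0.0056 to 0.88 and SPEF2 -0.12 to 1.19. The 5 turns in Han BB against Dorset and the 3 in Han against Dorset all came when W4 was left out. The cause was not tested.

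Over all genes, edgeR called 0 genes in Han BB against Dorset where DESeq2 called 38 and edgeR without a filter 2. In Han ++ against Dorset these counts were 1, 65 and 11, between the Han genotypes 0, 2 and 0, and between breeds 0, 88 and 6. No paired analysis was possible because the labels tie no ewe of a group to a ewe of another. The lowest count behind any value was 8 reads, for SPAG16 in D4.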
